A study of Rattus norvegicus with 6 samples.

Results

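Collagens, basement membrane proteins, other matrix proteins and markers of the stromal cells that make them were followed in the renal cortex of rats after 4 weeks of tricresyl phosphate. The set holds 42 genes, listed by function, and its members were the array probes whose accession belongs to one of these genes. A probe was found for 33 of the 42, and 31 could be tested among 31637 genes on the arrays, here meaning symbols, unnamed transcripts and unnamed probes. The groups were 3 male Sprague-Dawley rats given tricresyl phosphate at 200 mg/kg/day in 4 weeks of treatment and 3 male Sprague-Dawley rats given corn oil over the same time, with 1 array per animal. The rats were 5 weeks old at purchase and were kept on a basal diet with tap water, and no animal carries an altered gene. Tricresyl phosphate is an organophosphate used in plastics and lubricants. The question was how matrix transcripts differ between exposed and control cortex.

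The matrix of the kidney has an interstitial and a basement membrane part. Fibroblasts and perivascular cells lay down fibrillar collagens with small proteoglycans and elastic fibres between the tubules, and this material grows in fibrosis, where TGF-beta is the best known driver. Basement membranes are sheets of type IV collagen, laminin, nidogen and perlecan under tubule cells, endothelium and podocytes, and the glomerular sheet forms part of the filtration barrier.

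No matrix or stromal gene passed the test in either direction. In the limma fit, 0 of 31 members were past the adjusted threshold of 0.05 upwards and 0 downwards, and over all genes the share was 0% each way. Only 2 members had an unadjusted limma p under 0.05, the hyaluronan receptor gene Layn and the basement membrane collagen gene Col15a1, both lower with tricresyl phosphate. Over all genes that share was 5.47% in either direction and 3.83% for lower genes, which among 31 members comes to 1.7 and 1.19 genes. The groups did not overlap in 4 members, Layn, Col15a1 and Col1a1 lower and Tgfb1 higher, against 11.7% of all genes (7.87% lower and 3.85% higher), or 3.63 of 31. Both counts are close to the background. Of 5 red blood cell markers 4 were lower and 1, Slc4a1, was higher by 0.080, and groups did not overlap in 3 of the lower ones. Their mean levels overlapped, between 2.71 and 3.07 with tricresyl phosphate and between 3.00 and 3.20 with corn oil. The part of these markers in the members' differences was not tested. The median difference of the 31 members was −0.0086 on the log2 scale, with 17 lower and 14 higher. Beside this, the median over all genes was −0.038, and 59.2% of them were lower. With genes ranked into 5 classes of like size by mean level, the share lower was 59.7%, 54.1%, 50.6%, 55.7% and 75.9% from dimmest to brightest. These classes held 2, 2, 4, 12 and 11 of the members.

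Levels are log2 processed signals relative to the 75th percentile of the same array, and a difference is tricresyl phosphate minus corn oil on this scale. Each gene stands for the probe with the highest mean level among those that cleared the background flag on 3 or more arrays, and levels of different genes are not compared, since probes differ in brightness for the same amount of RNA. Between 41503 and 43823 of 61537 probes per array were well above background. All 10 proximal tubule markers were well above background on every array, and their mean level lay between 6.74 and 6.88 with tricresyl phosphate and between 6.78 and 6.96 with corn oil. Corn oil replicate 1 was alone on its slide and the other 5 arrays shared another, so the difference within the shared slide leaves that animal out. Its sign was opposite to that over all 6 animals in 9 of 31 members, Col14a1, Col18a1, Col4a4, Col6a2, Fn1, Lamb2, Lamc1, Myh11 and Tnc, none of which passed either way. Of 10 hepatocyte markers 8 were well above background on every array, and the mean of the list stood apart in 2 animals. Its deviation from the average of the 6 animals was 0.95 in tricresyl phosphate replicate 3 and 1.08 in corn oil replicate 2, and between −0.998 and −0.23 in the other 4. Not every marker followed. Apob was at −1.86 in corn oil replicate 2, below the other controls. Tf was at 2.73 in tricresyl phosphate replicate 3, below tricresyl phosphate replicate 2 at 2.80. In this bulk tissue, fewer cells of a type and less RNA per cell cannot be told apart.

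The upstream sequences of both members with an unadjusted p under 0.05 are shown first, with the stretch that separates the starts of a collagen pair. Promoter windows of 300 bases, from 250 before to 50 after the start, were found for 27 of the 42 members in RefSeq sequences of build GRCr8. Capitals mark an Sp1 box (GGGCGG, or CCGCCC on the other strand) or a SMAD box (CAGAC, or GTCTG on the other strand). The Layn bases lie at chr8:60280618-60280867 on the minus strand and the Col15a1 bases at chr5:66297296-66297545 on the plus strand, each ending at the last base before the start.
Layn: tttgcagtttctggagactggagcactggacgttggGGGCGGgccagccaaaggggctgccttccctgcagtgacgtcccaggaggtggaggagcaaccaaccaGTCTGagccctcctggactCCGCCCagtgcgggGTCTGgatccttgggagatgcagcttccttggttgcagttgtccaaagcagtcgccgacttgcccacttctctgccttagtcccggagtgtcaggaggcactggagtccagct
Col15a1: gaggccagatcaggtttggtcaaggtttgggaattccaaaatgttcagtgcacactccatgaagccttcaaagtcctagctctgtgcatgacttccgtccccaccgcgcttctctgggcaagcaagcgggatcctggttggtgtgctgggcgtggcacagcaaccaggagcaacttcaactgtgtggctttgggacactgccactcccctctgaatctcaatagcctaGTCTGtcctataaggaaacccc
Col4a1 and Col4a2: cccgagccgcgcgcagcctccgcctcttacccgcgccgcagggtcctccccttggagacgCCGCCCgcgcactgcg

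The third sequence shows how tightly Col4a1 and Col4a2, which encode the chains of the most widespread type IV collagen, are coupled in the genome. Their starts face away from each other with the 76 bases at chr16:84885521-84885596 between them, read here on the plus strand, the strand of Col4a1. The starts of Col4a3 and Col4a4, chains of the mature glomerular basement membrane, are likewise head to head with 412 bases between them. In each pair 1 gene was measured here, Col4a1 and Col4a4. Counted over whole windows and both strands, the Sp1 box was present in 14 of 27 member promoters and in 33.1% of all 33469 promoters, and the SMAD box in 16 of 27 and in 50.1%. The TATA box TATAAA was present in 3 of 27 and in 14.2% of all promoters. The CArG box of smooth muscle genes was searched only in its strict form CCWWWWWWGG, with W for A or T. This form was in 0 of 27 and in 1.64% of all promoters, and forms that depart from it were not counted. Both Sp1 boxes of Col4a1 and of Col4a2 are the same letters, in 176 bases that the windows of the pair share, so this stretch enters the count for each gene. A match is a match of letters and does not show that a factor binds there.

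Layn encodes layilin, a membrane receptor for the matrix sugar hyaluronan. Its levels were −4.53, −4.83 and −4.59 in tricresyl phosphate replicates 1 to 3, against −3.85, −4.00 and −4.02 in corn oil replicates 1 to 3. All 3 treated animals lay below all 3 controls, and the gap between the nearest animals was wider than the range within either group. It averaged −4.65 ± 0.16 with tricresyl phosphate and −3.96 ± 0.091 with corn oil (SD, n = 3 each). The difference was −0.69 ± 0.11 (SE), 0.62-fold. Its limma p was 0.00079 before and 0.812 after adjustment over all genes, so Layn did not pass. It was chosen as a member with its difference in these data known. The gene has a single probe, with signals of 44.3, 39.5 and 50.3 processed units with tricresyl phosphate and 64.7, 71.6 and 63.0 with corn oil. The median local background was between 33 and 41 units per array, and the probe was well above background on every array. With normexp background correction the difference was −0.35, and over the other 16 settings tried it lay between −0.75 and −0.60. Within the shared slide it was −0.64 ± 0.13 (SE).

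**Figure D1:**
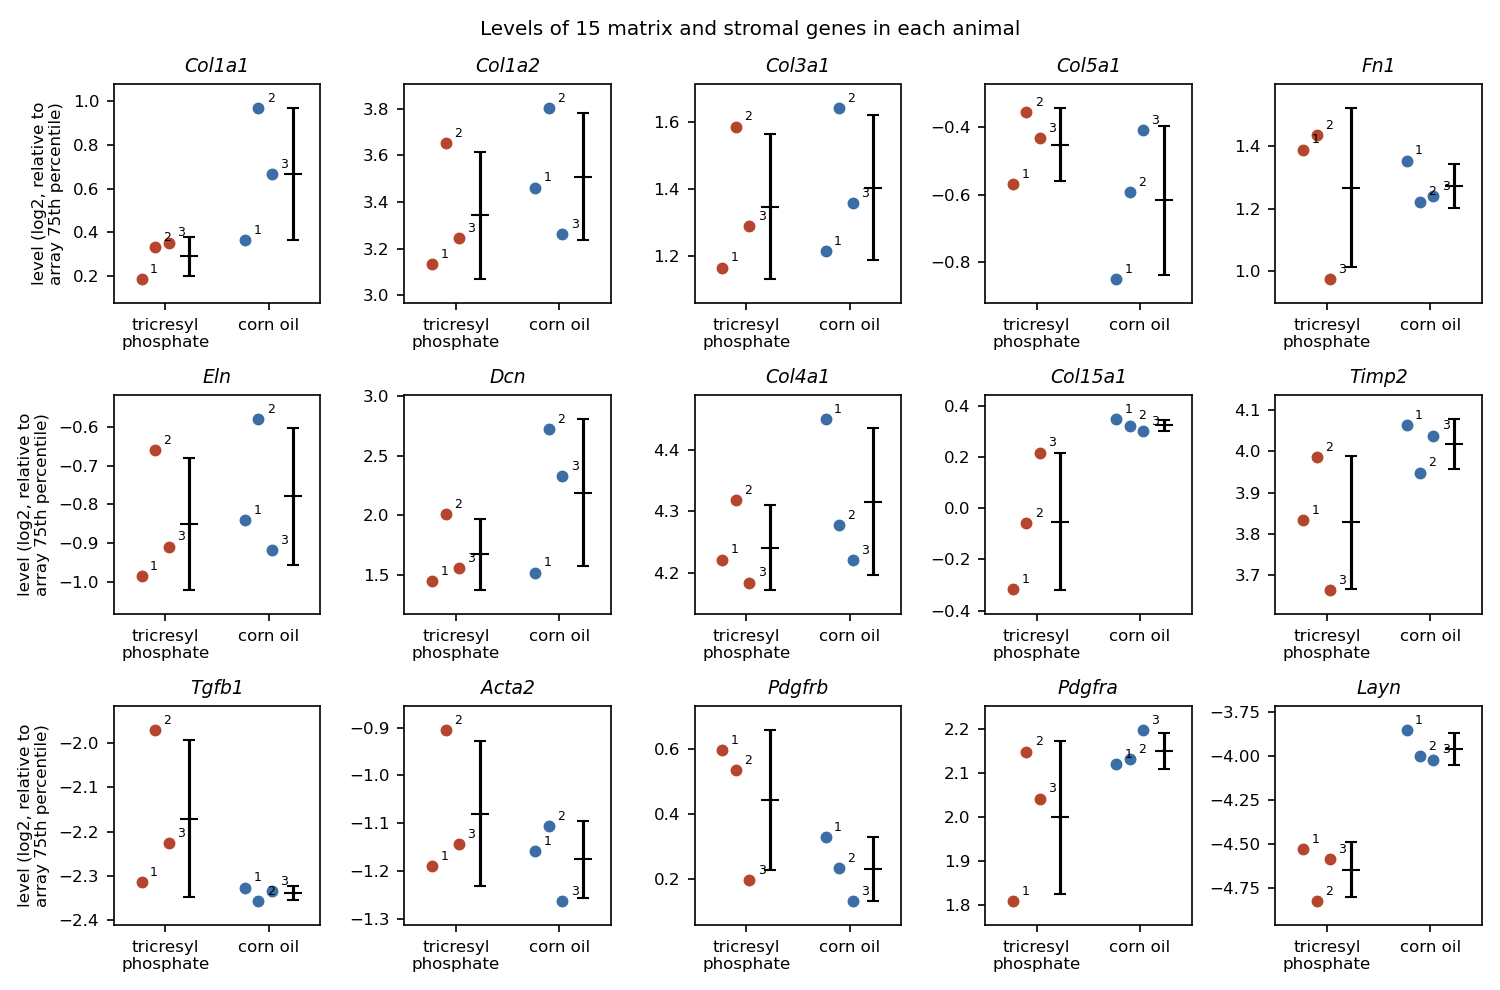
Levels (log2, relative to the 75th percentile of the array) of 15 members in each animal, tricresyl phosphate left and corn oil right, each panel with its own axis. Points are animals with their replicate number, and the bar gives the mean ± SD (n = 3 each). Layn, Col15a1 and Col1a1 lie lower and Tgfb1 higher in all 3 treated animals, while the groups overlap in the other 11 panels.

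The hyaluronan genes around Layn gave no member past the test. Of 12 genes listed for synthesis, binding and breakdown of hyaluronan, 7 were measured, 2 higher and 5 lower, with 0 past the adjusted threshold. Tnfaip6, which encodes a hyaluronan-binding protein of inflammation, had the smallest p of them. Its level was −5.30, −5.51 and −5.46 in tricresyl phosphate replicates 1 to 3, against −2.14, −4.92 and −4.95 in corn oil replicates 1 to 3. The wide difference of −1.42 ± 0.76 (SE) came with a single bright animal, corn oil replicate 1, which was on its own slide. Corn oil replicates 2 and 3 also lay above all treated animals, so the groups did not overlap, as in 11.7% of all genes. Apart from corn oil replicate 1 the Tnfaip6 probe was dim, though well above background on every array, which limits what can be read from its difference.

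Type I collagen is built from the products of Col1a1 and Col1a2, and it is the main fibrillar collagen of scar. Col1a1 was at 0.19, 0.33 and 0.35 in tricresyl phosphate replicates 1 to 3, against 0.37, 0.97 and 0.67 in corn oil replicates 1 to 3. The treated animals lay below the controls, but the highest of them, at 0.35, was next to corn oil replicate 1 at 0.37. It averaged 0.29 ± 0.091 with tricresyl phosphate and 0.67 ± 0.30 with corn oil (SD, n = 3 each), a difference of −0.38 ± 0.16 (SE) and a limma p of 0.061 before and 0.812 after adjustment. Under quantile and cyclic loess normalization, and with the mean of its probes, the groups overlapped. Its 3 probes differed by −0.38, −0.31 and −0.14. Without corn oil replicate 2 the difference was −0.22, and within the shared slide, which leaves out corn oil replicate 1, it was −0.53 ± 0.13 (SE). Both values leave the adjusted p above the threshold.

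Col1a2, the gene of the partner chain, was at 3.13, 3.65 and 3.24 in tricresyl phosphate replicates 1 to 3, against 3.46, 3.80 and 3.26 in corn oil replicates 1 to 3. The groups overlapped, and the difference was −0.17 ± 0.20 (SE), with the second probe at 0.041. Whether the differences of Col1a1 and Col1a2 are unequal was not tested. Col3a1, the collagen found with type I in loose interstitium, was at 1.17, 1.59 and 1.29 with tricresyl phosphate, against 1.21, 1.64 and 1.36 with corn oil. Its animals spread alike in both groups, and the difference was −0.057 ± 0.16 (SE). Col5a1, whose chain nucleates type I fibrils, was at −0.57, −0.36 and −0.43 with tricresyl phosphate, against −0.85, −0.59 and −0.41 with corn oil. The groups overlapped, with a difference of 0.16 ± 0.14 (SE), and its dimmest probe was at −0.52. Col6a2, a chain of the beaded microfibrils around cells, and Col14a1, a collagen that sits on the fibril surface, differed by 0.041 ± 0.20 (SE) and 0.013 ± 0.28 (SE). Within the shared slide Col6a2 was at −0.11 ± 0.19 (SE) and Col14a1 at −0.27 ± 0.19 (SE), so neither has a settled sign, and Col3a1 and Col5a1 were at −0.15 and 0.048 there. Over the 6 measured collagens of this list 3 were lower and 3 higher, with a median of −0.022.

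Among the other interstitial proteins decorin had the widest difference. Dcn encodes decorin, a small proteoglycan that binds collagen fibrils and TGF-beta. It was at 1.45, 2.01 and 1.55 in tricresyl phosphate replicates 1 to 3, against 1.52, 2.73 and 2.33 in corn oil replicates 1 to 3. Corn oil replicate 1 lay among the treated animals and the other 2 controls lay above all of them. It averaged 1.67 ± 0.30 with tricresyl phosphate and 2.19 ± 0.62 with corn oil (SD, n = 3 each), −0.52 ± 0.33 apart (SE), at an adjusted limma p of 0.812. The difference was −0.86 ± 0.22 (SE) within the shared slide and −0.25 without corn oil replicate 2, so its size depended on which control animals entered.

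Fn1, the gene of the adhesion protein fibronectin, was at 1.39, 1.44 and 0.97 with tricresyl phosphate, against 1.35, 1.22 and 1.24 with corn oil. The controls lay close together inside the range of the treated animals, and the difference was −0.0057 ± 0.14 (SE), a value whose sign turned in 8 of 17 settings. These include the slide as a block and the fit without corn oil replicate 1, which are the same fit. Eln, which encodes elastin, was at −0.98, −0.66 and −0.91 with tricresyl phosphate, against −0.84, −0.58 and −0.92 with corn oil, and differed by −0.071 ± 0.14 (SE). Fbn1, the microfibril gene fibrillin 1, Sparc, a collagen-binding matricellular protein, and Bgn, the proteoglycan biglycan, each differed by between −0.015 and −0.0086. The Bgn probe used gave −0.015 and its other probe gave 0.44. Tnc, the injury-associated protein tenascin C, was near background, with a difference of 0.094 ± 0.47 (SE). Tnc was at −0.44 ± 0.24 (SE) within the shared slide and at 0.45 without corn oil replicate 2, and Fbn1 was at −0.14 within the slide. The probes of Lum (lumican) and Postn (periostin) were not well above background on any of the 6 arrays, so these 2 members were not tested. The probe match found none for Col5a2, Col6a1, Col6a3 and Lox, and they are not analysed here. Of the 7 measured genes of this list 6 were lower and 1 higher, with a median of −0.015. Over all genes 59.2% were lower, a share that changed with brightness, as given above.

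**Figure D2:**
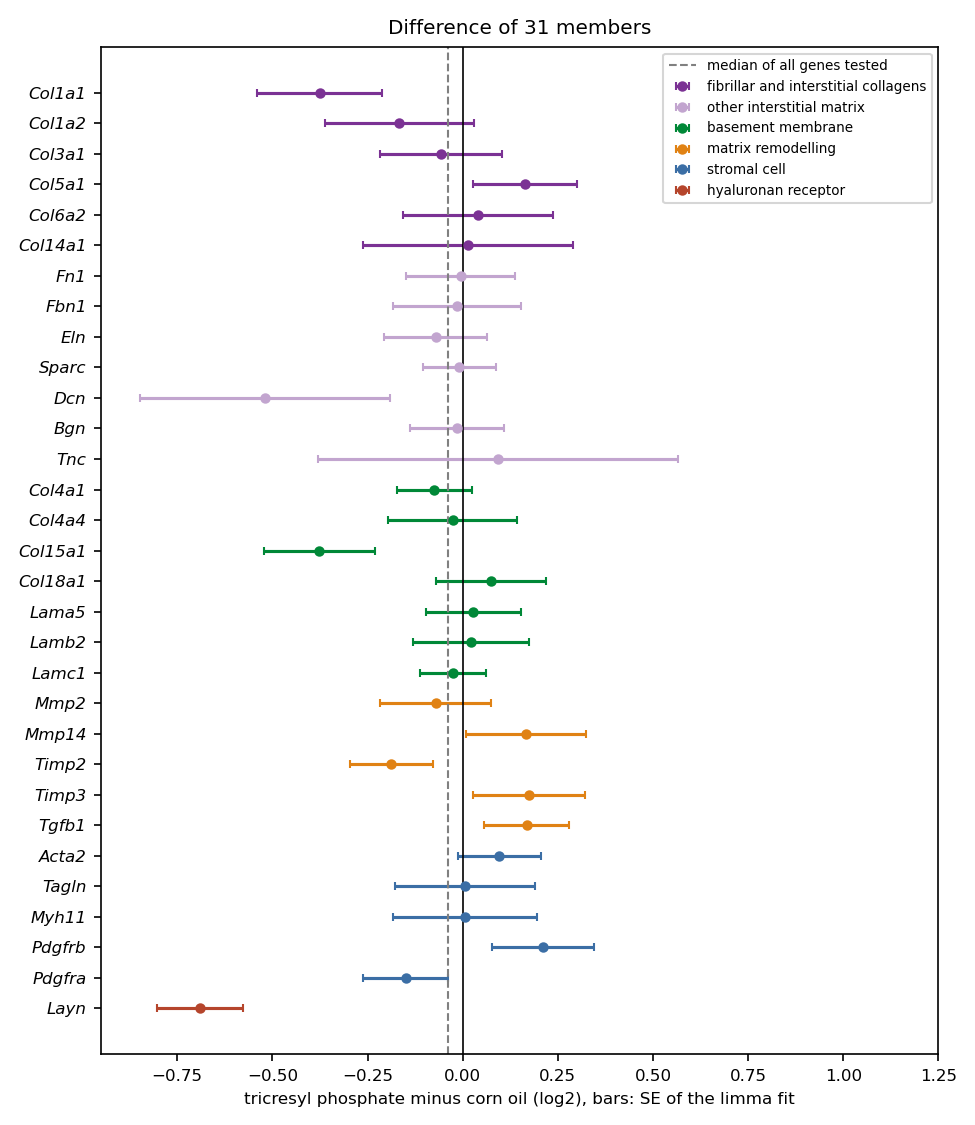
Difference in log2 level, tricresyl phosphate minus corn oil, for 31 members, with bars for the SE of the limma fit and colours for the functional list. The dashed line is the median of all genes tested, −0.038, and none of the members passed the adjusted threshold.

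Of the basement membrane genes, 1 collagen had groups that did not overlap. Col15a1 encodes a collagen with chondroitin sulfate chains that links basement membranes to the interstitium. Its level was −0.32, −0.059 and 0.22 in tricresyl phosphate replicates 1 to 3, against 0.35, 0.32 and 0.30 in corn oil replicates 1 to 3. The controls lay close together and the treated animals spread over a wider range, all below the controls. It averaged −0.053 ± 0.27 with tricresyl phosphate and 0.32 ± 0.023 with corn oil (SD, n = 3 each). The difference was −0.38 ± 0.15 (SE), 0.77-fold, and the second probe gave −0.34. Its limma p was 0.040 before and 0.812 after adjustment. The difference was −0.24 without tricresyl phosphate replicate 1 and −0.37 within the shared slide, and its unadjusted limma p stayed under 0.05 in 8 of 17 settings.

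Col4a1, the main type IV collagen chain, was at 4.22, 4.32 and 4.18 with tricresyl phosphate, against 4.45, 4.28 and 4.22 with corn oil. The groups overlapped, and the difference was −0.075 ± 0.098 (SE), with its 4 probes between −0.26 and 0.14 and its sign turned under quantile normalization with or without normexp. Col4a4, a chain of the glomerular network, differed by −0.026 ± 0.17 (SE). Col18a1, the collagen that carries endostatin, differed by 0.074 ± 0.15 (SE). The laminin genes Lama5, Lamb2 and Lamc1, whose products form the laminin trimer of the mature glomerular basement membrane, differed by 0.028 ± 0.12, 0.023 ± 0.15 and −0.024 ± 0.087 (SE). These 3 subunits lay within their SE of 0. Within the shared slide Col4a4 was at 0.086, Col18a1 at −0.0089 and Lamb2 at −0.095. Of 7 measured basement membrane members 4 were lower and 3 higher, with a median of −0.024. No probe was matched to Col4a2, Col4a3, Lamb1, Nid1 or Hspg2, which are not analysed here. Podocyte markers, whose cells share the glomerular sheet, had a mean level between 1.21 and 1.59 with tricresyl phosphate and between 1.30 and 1.48 with corn oil.

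Interstitial and basement membrane members were then set against each other in the same animals. The median difference was −0.015 over 13 interstitial and −0.024 over 7 basement membrane members. The interstitial mean level minus the basement membrane mean level was −1.31, −1.19 and −1.29 in tricresyl phosphate replicates 1 to 3, against −1.54, −0.98 and −1.21 in corn oil replicates 1 to 3. Only its change between animals can be read, since the probes of both sets differ in brightness. It averaged −1.26 ± 0.062 with tricresyl phosphate and −1.24 ± 0.28 with corn oil (SD, n = 3 each), and all 3 treated animals fell inside the range of the controls. The groups differed in it by −0.017, less than the spread among corn oil animals. The value was −0.17 without corn oil replicate 1 and 0.11 without corn oil replicate 2, so its sign rests on which control animals enter.

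The interstitial genes varied among corn oil animals more than between the groups. Their mean deviation from the average of the 6 animals was −0.11, 0.076 and −0.067 in tricresyl phosphate replicates 1 to 3, against −0.25, 0.28 and 0.068 in corn oil replicates 1 to 3. Corn oil replicate 2 was the highest animal in 10 of 13 interstitial members and tricresyl phosphate replicate 2 in the other 3. Corn oil replicate 1 was the lowest in 5, and tricresyl phosphate replicate 1 in 5. Over all genes with no missing value corn oil replicate 2 was the highest in 5108 of 31613. Basement membrane members moved less, with mean deviations of −0.061, 0.014 and −0.035 with tricresyl phosphate and 0.044, 0.014 and 0.023 with corn oil. The median pooled SD within groups was 0.22 for interstitial members, 0.19 for basement membrane members and 0.17 for all genes tested.

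Corn oil replicate 2 and tricresyl phosphate replicate 3 had the highest mean of hepatocyte markers, as given above. Corn oil replicate 1, the lowest in that mean and in the interstitial mean, was on its own slide. The part of these in the interstitial levels was not tested. Within the shared slide the interstitial median was −0.14 and the basement membrane median −0.0081. With both animals of a high hepatocyte marker mean left out, the interstitial median was 0.11 and the interstitial minus basement membrane difference 0.13, against −0.015 and −0.017 with all 6 animals.

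**Figure D3:**
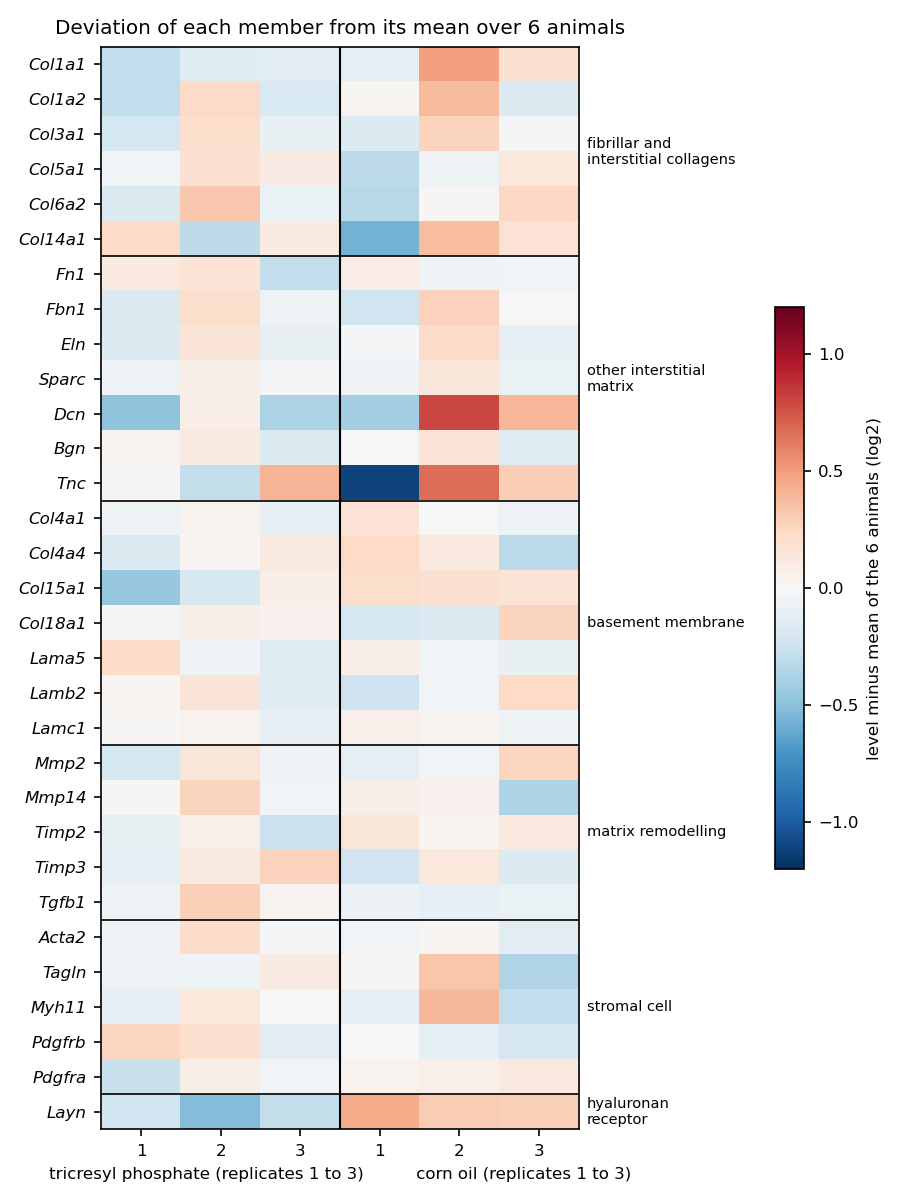
Heat map of the level of 31 members minus its mean over 6 animals (log2, red higher, blue lower), with members grouped by function down the page, tricresyl phosphate replicates 1 to 3 on the left and corn oil replicates 1 to 3 on the right. Of 13 interstitial members 10 are highest in corn oil replicate 2, and Layn separates the groups.

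**Figure D4:**
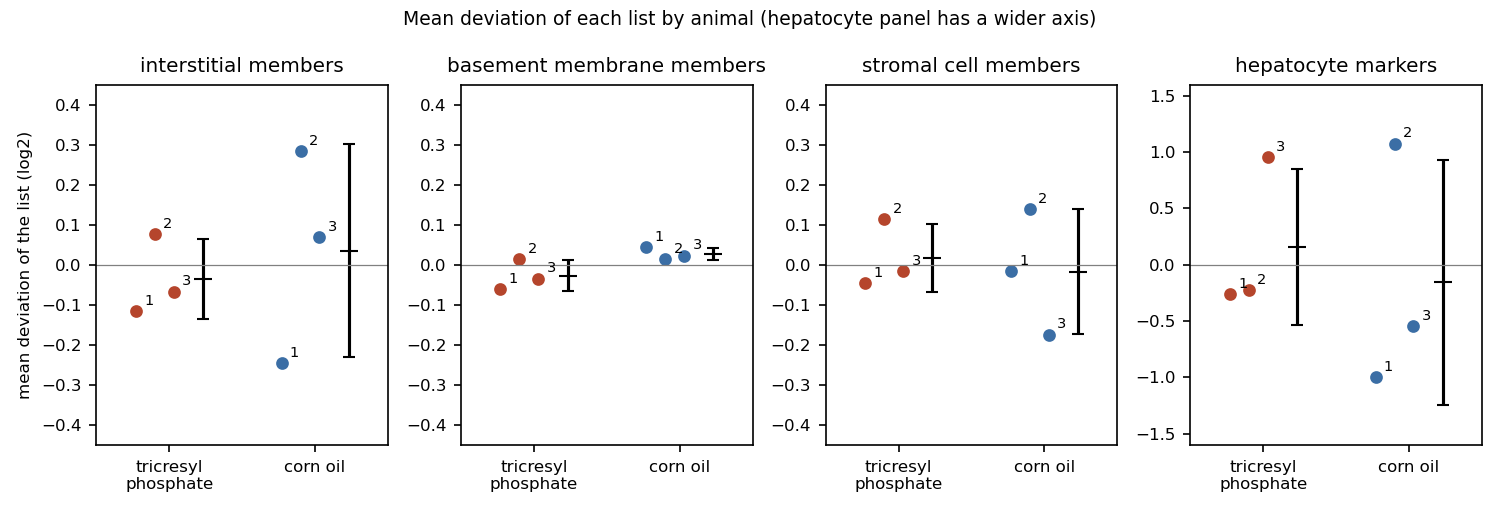
Mean deviation (log2) of interstitial, basement membrane and stromal cell members and of hepatocyte markers in each animal, with tricresyl phosphate left and corn oil right. Bars give the mean ± SD (n = 3 each), and the hepatocyte panel has a wider axis. Interstitial members run from −0.25 to 0.28 among corn oil animals.

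Genes that remodel the matrix gave small differences in both directions. Tgfb1 encodes TGF-beta 1, the fibrogenic cytokine. It was at −2.31, −1.97 and −2.23 in tricresyl phosphate replicates 1 to 3, against −2.33, −2.36 and −2.33 in corn oil replicates 1 to 3. All 3 treated animals lay above the controls, the nearest, tricresyl phosphate replicate 1, by a margin much smaller than the spread among treated animals. The groups were 0.17 ± 0.11 apart (SE) at an adjusted limma p of 0.814, and they overlapped under quantile and cyclic loess normalization. Timp2, an inhibitor of matrix metalloproteinases that also takes part in the activation of MMP2, was at 3.83, 3.99 and 3.66 with tricresyl phosphate, against 4.06, 3.95 and 4.04 with corn oil. Tricresyl phosphate replicate 2 lay inside the control range, and the difference was −0.19 ± 0.11 (SE). The matrix-bound inhibitor gene Timp3 differed by 0.17 ± 0.15 (SE), the membrane-type protease gene Mmp14 by 0.17 ± 0.16 (SE) and the gelatinase gene Mmp2 by −0.071 ± 0.15 (SE). The median of these 5 was 0.17, with 3 higher and 2 lower, and none passed.

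Of 5 stromal cell markers 4 were higher and 1 lower, with none past the test. Pdgfrb, the growth factor receptor of pericytes and mesangial cells, was at 0.59, 0.53 and 0.196 with tricresyl phosphate, against 0.33, 0.23 and 0.13 with corn oil. Tricresyl phosphate replicates 1 and 2 lay above all controls and replicate 3 among them. The groups were 0.21 ± 0.13 apart (SE) at an adjusted limma p of 0.812, and the second probe gave 0.25. Pdgfra, the receptor of fibroblasts, was at 1.81, 2.15 and 2.04 with tricresyl phosphate, against 2.12, 2.13 and 2.20 with corn oil. The groups overlapped, with a difference of −0.15 ± 0.11 (SE).

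Acta2, the smooth muscle actin that marks vessel walls and myofibroblasts, was at −1.19, −0.91 and −1.14 with tricresyl phosphate, against −1.16, −1.11 and −1.26 with corn oil. It differed by 0.096 ± 0.11 (SE). The smooth muscle genes Tagln and Myh11 differed by 0.0064 ± 0.18 and 0.0058 ± 0.19 (SE), and both were highest in corn oil replicate 2 and lowest in corn oil replicate 3. The median of the 5 stromal members was 0.0064, but it was 0.17 without corn oil replicate 2 and −0.13 without corn oil replicate 3, so it has no stable sign. Other smooth muscle markers had mean levels between −0.26 and −0.19 with tricresyl phosphate and between −0.31 and −0.038 with corn oil, and 0 of 6 measured passed. Fibroblast markers had mean levels between −1.37 and −1.26 with tricresyl phosphate and between −1.52 and −1.32 with corn oil. Of 6 measured 0 passed, with 4 higher and 2 lower. Thy1, measured by a dim probe, was higher by 0.52 ± 0.17 (SE) with groups that did not overlap, as in 11.7% of all genes. Its limma p was 0.020 before and 0.812 after adjustment.

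Further genes of the matrix and its pathways, 125 in 7 lists of which 95 were measured, gave 0 higher and 0 lower at an adjusted limma p under 0.05. Unadjusted, 0 of them had a limma p under 0.05, where 5.47% of all genes lay. Their median difference was −0.010, with 44 higher and 51 lower. Among 19 measured TGF-beta pathway genes 12 were higher and 7 lower, with a median of 0.038. The smallest p among them was that of Inhba, which encodes an activin subunit, with a difference of −0.46 ± 0.24 (SE). Among 17 genes of collagen maturation and crosslinking 7 were higher and 10 lower. Plod2, a lysyl hydroxylase of collagen, led this list by p with a difference of 0.17 ± 0.098 (SE).

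None of the remaining lists gave a gene past the test. Of 13 integrins and matrix receptors 7 were higher and 6 lower, and Itga1, the alpha chain of a collagen-binding integrin, differed by 0.36 ± 0.16 (SE). Of 12 proteases and inhibitors 6 were higher and 6 lower, and Adamts1, a proteoglycan-cleaving protease, differed by −0.45 ± 0.22 (SE). Of 19 other interstitial genes 8 were higher and 11 lower, and Mfap4, a microfibril-associated protein, differed by −0.71 ± 0.32 (SE). Of 8 other basement membrane genes 2 were higher and 6 lower, and Lamb3, a laminin chain of epithelia, differed by −0.41 ± 0.19 (SE).

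**Figure D5:**
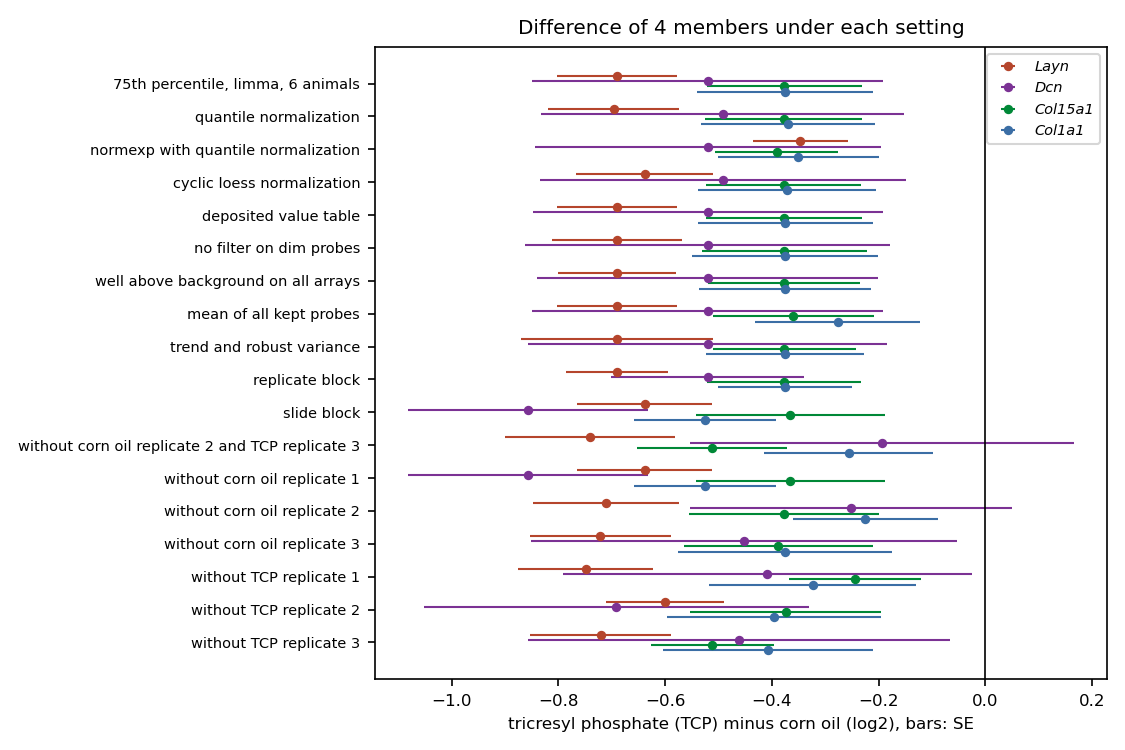
Difference in log2 level, tricresyl phosphate (TCP) minus corn oil, of Layn, Dcn, Col15a1 and Col1a1 under the reported setting (top) and 17 alternatives, with bars for the SE. Layn stays between −0.75 and −0.35, while Dcn runs from −0.86 to −0.19 as animals are left out.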

How the data were processed

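Renal cortex RNA of 6 rats was hybridised with Cy3 to 1-colour Agilent arrays, 1 per animal, per the labels' protocols. The authors quantified the arrays with Agilent Feature Extraction, given as 10.7 in the submitters' processing notes and as 10.7.1.1 in the files. Per the file headers, the intensity column is that software's processed signal, and the correction steps behind it are not given in the sources used here. The authors' value table holds intensity proportional to these in the brighter probes, with a coefficient of variation of at most 0.0092%, so it is linear and uncentred, with column medians from 0.1094 to 0.1152, and it was used as an alternative. Flags for background, outliers and saturation came with the files. No spot was saturated, and 77 outlier spots were set missing.

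Log2 signals minus the 75th percentile of each array over 61537 non-control probes were tested two-sided by limma 3.58.1 (lmFit, then eBayes, under R 4.3.3), and p-values were adjusted by Benjamini-Hochberg over 31637 genes. Errors marked SE come from this fit. Probes well above background on at least 3 arrays were kept (43099). The number of arrays limits the precision. Accessions were named through the RefSeq gene table of GRCr8, which gave 28206 probes a symbol and left 33331 without one, among which the arrays may still carry probes for the 9 members that were not matched. No coordinates of array features are given, since the file headers name build rn4. The fit was tested on simulated data. Alternatives were quantile, normexp (offset 50) with quantile, and cyclic loess normalization, the value table, other probe filters, the mean of all probes, another variance model, the replicate or slide as a block, and animals left out.

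The members, lists and alternatives were chosen with earlier results of these data known. Values per animal were given for Layn, 9 genes named whatever their values, of which Col4a2 had no probe, and the 2 members of each list with the smallest p. In each pathway list the gene with the smallest p was named.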

Additional observations from a re-analysis of the deposited data

How the results depend on the processing

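In each of 17 alternatives 0 members and 0 pathway genes were called, and the lowest adjusted limma p of any member was 0.677. The alternatives are not all separate checks. With the slide as a block the fit is the same as without corn oil replicate 1, so counts over settings hold that result in duplicate. The basement membrane median was 0.013 under quantile normalization, 0.026 with normexp, 0.015 under cyclic loess and 0.023 with the mean of all kept probes, and over single animals left out it ranged from −0.057 to 0.018. The members at an unadjusted p under 0.05 numbered 1 with no filter on dim probes and 1 with the mean of all probes, and from 1 to 3 with an animal left out. Groups did not overlap in 2 members under quantile and 2 under cyclic loess normalization, in 4 to 7 with an animal left out (18.7% to 27.6% of all genes) and in 9 (33.8% of all genes) without the pair of animals highest in hepatocyte markers, corn oil replicate 2 with tricresyl phosphate replicate 3, where fewer animals make a gap easier, and of these 7 counts only that without tricresyl phosphate replicate 2 (7 of 31) was above the share of all genes. The stromal median was 0.16 without that pair and ranged from −0.13 to 0.17 with an animal left out, the remodelling median from 0.041 to 0.20 and the interstitial median from −0.14 to 0.058. The causes were not tested. Of 255 values of single named members 17 turned sign, in 6 members, none of them called. Fn1 was at 0.012 under quantile, 0.038 with normexp, 0.011 under cyclic loess, 0.097 with the mean of all probes, 0.035 with the slide as a block, 0.12 without the pair, and from −0.091 to 0.14 with an animal left out. Col4a1 was at 0.0089 under quantile and 0.015 with normexp, and Col5a1 at −0.074 with the mean of all probes. With an animal left out Col1a2 ranged from −0.32 to −0.020. Without the pair it was at 0.030, Col3a1 at 0.090 and Eln at 0.056, and with an animal left out Col3a1 ranged from −0.18 to 0.061 and Eln from −0.17 to 0.028. The deviations of same-numbered animals correlated at 0.086, −0.051 and −0.044, and not every animal correlated best with its own number. With 3 animals per group these values cannot settle whether the numbers pair the animals. With the replicate number as a block 0 members were called and 3 had an unadjusted limma p under 0.05, where 6.08% of all genes lay. Dim probes such as those of Layn, Tnfaip6 and Tnc limit what can be read from their folds.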
